A study of Mus musculus with 6 samples.

Results

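Receptors for somatostatin (Sstr3), catecholamines (Adra2a), acetylcholine (Chrm3 and the channel subunit Chrnb4), long-chain fatty acids (Ffar1), hydroxycarboxylic acids (Hcar2) and extracellular calcium (Casr) were examined in mouse beta-cells. The 7 genes were chosen by symbol for the signals they receive, and all 7 were among the 13535 genes of the expression table. Beta-cells came from islets of 12-week-old male C57BL/6JRj mice of wild-type genotype and were sorted by surface markers, reaggregated, kept for 5 days and sorted again before RNA sequencing. Pseudo-islets held alpha-, beta- and delta-cells, whereas pseudo-beta were built from sorted beta-cells, with only rare alpha- or delta-cells in the paper's staining. The question was which beta-cell genes depend on the other endocrine cells being in the same cluster. There were 3 libraries per group, 1 of each group in each of the experiments labelled 35, 36 and 37, and every library was made from sorted beta-cells and not from whole clusters. Per the study's methods, the sort took CD49f+CD81- cells after removal of cells with CD45, TER119 or CD31, and left CD49f+CD81+ cells aside. The labels name the partners in pseudo-islets as the other endocrine cells, without listing them.

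Beta-cells read the state of the animal through such receptors. Receptors coupled to inhibitory Gi/o proteins lower cAMP and open potassium channels, which restrains insulin release, and Sstr3, Adra2a and Hcar2 belong to this class. Receptors coupled to Gq activate phospholipase C and release calcium from stores, which adds to the response to glucose, and Chrm3 and Ffar1 belong here. Casr is a class C receptor that couples to Gq and Gi proteins, while Chrnb4 encodes a subunit of a cation channel opened by acetylcholine.

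Values are the authors' normalized counts, that is, estimated read counts divided by a library factor. They sum to between 17994346 and 19635287 per library, and the number of reads behind them is unknown. Correlations of log2 values between libraries ran from 0.941 to 0.962 across genes, which are not independent replicates. All 10 beta-cell markers were in the table, Ins2 taking 29.7% to 30.8% of a library. None was called by limma at an adjusted p under 0.05, where 0.0591% of all genes were called, and 0.539% with the experiment as a block. At an unadjusted p under 0.05, 1 marker was higher in pseudo-islets without the block (5.4% of all genes passed). With the block 4 were higher and 2 lower, where 11.9% of all genes passed. Gcg, the alpha-cell hormone, had 1763, 941 and 2094 normalized counts in pseudo-islets against 36.1, 14.1 and 0 in pseudo-beta, and Sst, the delta-cell hormone, at 190.2, 146 and 210.2 against 0, 0 and 4.74. Ppy, the hormone of PP-cells, was present in both groups and higher in pseudo-islets by 1.15 on the log2 scale (limma adjusted p = 0.99, and 0.00267 with the experiment as a block). Without experiment 35 the blocked adjusted p of Ppy in limma was 0.0683, and without 1 library its log2 fold change ran from 0.37 (without pseudo-islets of experiment 35 or pseudo-beta of experiment 36) to 2.09 (without pseudo-islets of experiment 36). Acinar and stromal markers had no member in the table (0 of 8 each) and endothelial markers 1 of 8. In these bulk samples, fewer cells of a type and less RNA per cell cannot be told apart.

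Hcar2 and Chrnb4 stood furthest from 0 of the 7, at opposite signs. Hcar2 was higher in beta-cells from pseudo-islets in 3 of 3 experiments, as were 18% of all genes. Chrnb4 was lower in 3 of 3, as were 15%. The other 5 receptors differed by at most 0.30 on the log2 scale in the mean. No receptor passed an adjusted p of 0.05 in limma, which called 0 of the 7, where 0.0591% of all genes were called. With the experiment as a block limma again called 0 of the 7, and 0.539% of all genes. At an unadjusted p under 0.05, Hcar2 and Chrnb4 passed in both fits, 2 of 7 receptors, against 5.4% of all genes without the block and 11.9% with it. In the mean, 6 receptors were lower in pseudo-islets and 1 was higher, with a median log2 fold change of -0.16 against 0.01 over all genes, of which 48.6% were lower.

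**Figure D1:**
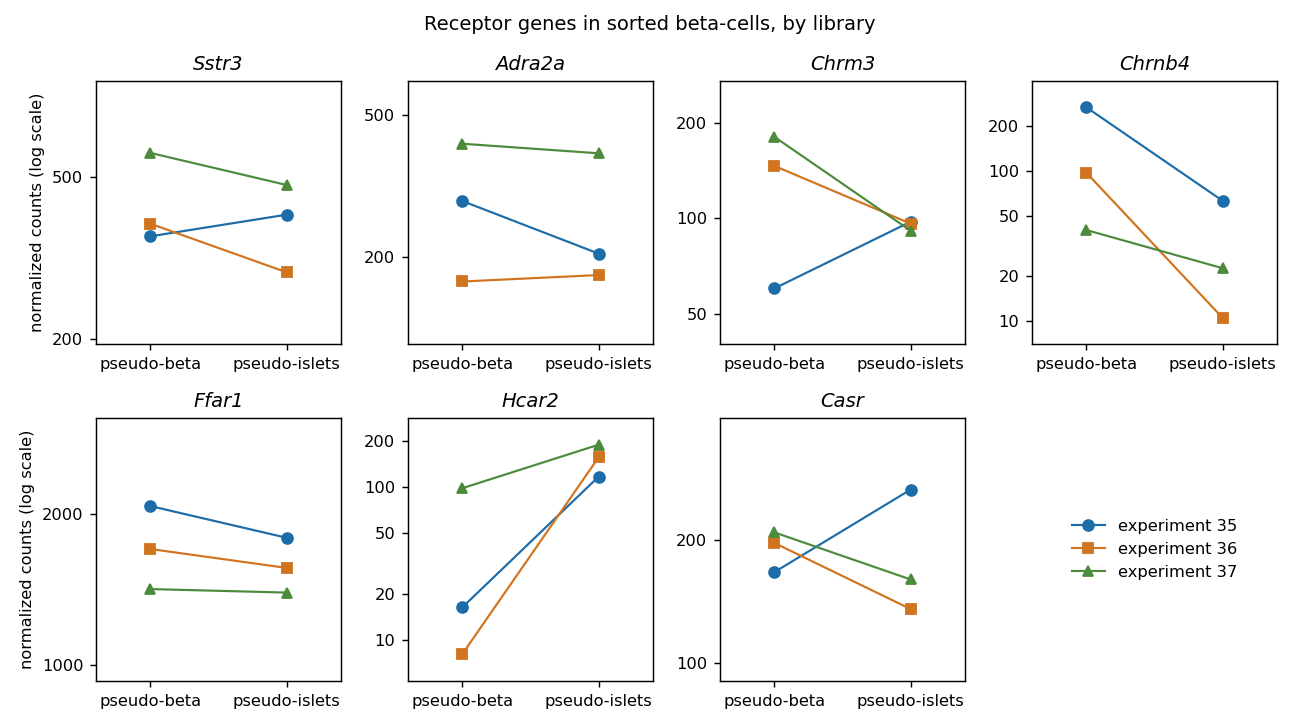
Normalized counts (log scale, own range in each panel) of the 7 receptor genes in each library. Each line joins the pseudo-beta and the pseudo-islets library of 1 experiment. The lines of Hcar2 all climb from pseudo-beta to pseudo-islets, and those of Chrnb4 and Ffar1 all descend. Those of Sstr3, Adra2a, Chrm3 and Casr differ in direction between experiments.

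Among the inhibitory receptors, Hcar2 responds to nicotinic acid and to the ketone body beta-hydroxybutyrate. The gene (ENSMUSG00000045502) lies at chr5:123863570-123865499 on the minus strand of GRCm38 and overlaps no other annotated gene. In pseudo-islets of experiments 35, 36 and 37 it had 117, 157 and 190 normalized counts, against 16.4, 8.15 and 98.5 for pseudo-beta. Hcar2 was the 1 of the 7 whose groups did not overlap, which 10.8% of all genes did in either direction and 5.63% with pseudo-islets higher. The highest pseudo-beta library, experiment 37, was nearer to the pseudo-islets than to the other pseudo-beta libraries. Means were 155 ± 36.2 against 41.0 ± 49.96 (SD, n = 3), and the ratio of pseudo-islets over pseudo-beta was 7.14, 19.3 and 1.92 in the 3 experiments.

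The log2 fold change of Hcar2 was 2.60 (SE 0.72, 95% interval 0.999 to 4.21), which 25 genes of the table exceeded. Its adjusted p was 0.649 in limma without the block (unadjusted p = 0.00462) and 0.0564 with it (unadjusted p = 0.000337). The exact two-sided permutation test, which ignores the pairing by experiment, gave p = 0.1, the smallest that 3 against 3 unpaired libraries allow. The call and the size depended on the libraries kept and on the pseudocount, and the adjusted p also on the variance trend. Without the pseudo-beta library of experiment 37 the log2 fold change was 3.596 (limma adjusted p = 0.0203), and without both libraries of experiment 37 it was 3.44 in the blocked fit (limma adjusted p = 0.0218). Without the pseudo-beta library of experiment 36, the lowest, it was 1.87, and without both libraries of experiment 36 it was 1.85 in the blocked fit (limma adjusted p = 0.0959). With the block and a pseudocount of 10 it was 2.12 (limma adjusted p = 0.0306). With the block and no trend of the variance it was 2.60 (limma adjusted p = 0.534), a setting that called 0 of all genes. Over all alternatives the adjusted p of Hcar2 in limma ran from 0.0203 to 0.9999.

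Some markers of other cells were, like Hcar2, higher in pseudo-islets. Gcg and Sst had 0 to 36.1 normalized counts in pseudo-beta and 146 to 2094 in pseudo-islets. The alpha-cell markers, 7 of 12 in the table, summed to 20928 to 26843 in pseudo-islets and 16283 to 20164 in pseudo-beta, with Irx1 and Irx2 without a row. Of each sum, 10252 to 15587 came from Cltrn, also named Tmem27, which beta-cells express too (log2 fold change 0.20, SE 0.14). Delta-cell markers, 5 of 8 in the table, summed to 3989 to 5043 against 3532 to 4760, most of it Pdx1, a gene of beta-cells as well (log2 fold change 0.0020). PP-cell markers, 4 of 4, summed to 1343 to 5951 against 689 to 2809. Of 10 immune-cell markers 2 were in the table, and they summed to 1656 to 2675 against 988 to 1416. Nearly all of that was C1qa, a complement gene of macrophages that was named after its values were seen, at 2318, 2661 and 1649 in pseudo-islets against 977, 1412 and 983 in pseudo-beta (log2 fold change 0.97, limma adjusted p = 0.379, blocked 0.00305). CD45, which macrophages carry, was among the antibodies used for sorting, and the share of macrophages left in these libraries was not measured. Hcar2 and C1qa were each higher in pseudo-islets in 3 of 3 experiments, as were 18% of all genes. The part of these markers in the Hcar2 result was not tested.

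Sstr3, a somatostatin receptor of beta-cells that sits on the primary cilium, receives the signal of delta-cells. The gene (ENSMUSG00000044933) lies at chr15:78537008-78544685 on the minus strand. Pseudo-islets had 403, 291 and 477 normalized counts of Sstr3, and pseudo-beta had 357, 383 and 571. The groups overlapped, and the pseudo-islets library was the higher of its pair in 1 of 3 experiments. Means were 390.5 ± 93.4 against 437 ± 117 (SD, n = 3). The log2 fold change was -0.16 (SE 0.25, 95% interval -0.72 to 0.40, limma adjusted p = 0.998), and the blocked interval was -0.53 to 0.21. The blocked interval excluded a 1.5-fold difference in either direction, and the unblocked one only a 1.5-fold higher level in pseudo-islets.

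Adra2a, the alpha-2A receptor through which adrenaline and noradrenaline inhibit insulin release, lies at chr19:54044151-54048982 on the plus strand (ENSMUSG00000033717). Its normalized counts were 205, 178 and 391 for pseudo-islets and 287, 171 and 416 for pseudo-beta. Both libraries of experiment 37 were the highest of their group, and the spread between experiments was larger than that between groups. Means were 258 ± 116 against 291.5 ± 123 (SD, n = 3). The log2 fold change was -0.17 (SE 0.37, 95% interval -0.997 to 0.65, limma adjusted p = 0.998). With the block, the standard error was 0.19 and the interval -0.59 to 0.25.

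The region before the RefSeq start of these inhibitory receptors is shown because cAMP, which they lower, acts on genes through the cAMP response element. Of the 7 receptors, 6 had a RefSeq promoter entry (GRCm38.p6), and Hcar2 had none and was not searched. For these 6, 7 windows of 250 bases before the start were searched on both strands. The motifs were TGACG, the cAMP-response-element half-site, and the E-box CACGTG. Windows of 2 receptors, Sstr3 and Adra2a, held both motifs, which do not overlap each other. Over all 32851 windows, 17.8% held TGACG, 6.02% held CACGTG and 1.53% held both. In the sequences, read 5′ to 3′ on the strand of the gene, capitals mark both motifs. The Sstr3 site is at chr15:78544348-78544377 (minus strand), with the half-site 9 bases and the E-box 31 bases before the start. The Adra2a site is at chr19:54045172-54045201 (plus strand), with the half-site 69 and the E-box 80 bases before the start.
Sstr3: cCACGTGtcctggagatggggggTGACGta
Adra2a: gacttccCACGTGggggcTGACGccggctg
Both sites lie inside the longer gene of the GENCODE annotation. They are matches of letters, and no binding was measured. Across the 6 libraries, the log2 levels of Sstr3 and Adra2a had a Pearson r of 0.79, the libraries of experiment 37 being the highest of their group for both. Ffar1 and Chrnb4, whose windows did not hold both motifs, also had an r of 0.79. Whether the motifs bear on these levels was not tested.

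Among the receptors of acetylcholine, Chrnb4 had the lower values in pseudo-islets. Its product forms neuronal nicotinic channels, mostly together with the alpha-3 subunit. The gene (ENSMUSG00000035200) lies at chr9:55028154-55048779 on the minus strand, and the antisense gene Gm47877 overlaps it, so its reads are uncertain where the counting did not use strand. Pseudo-islets had 63.4, 10.4 and 22.4 normalized counts of Chrnb4, and pseudo-beta had 268, 97.8 and 40.4. In each experiment the pseudo-beta library was the higher, by 4.23, 9.40 and 1.80 times, as was so in 3 of 3 experiments for 15% of all genes. The groups overlapped all the same, because the levels differed between experiments. Means were 32.1 ± 27.8 against 135.5 ± 119 (SD, n = 3).

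The log2 fold change of Chrnb4 was -2.00 (SE 0.74, 95% interval -3.65 to -0.35), and 33 genes had a lower one. Its adjusted p in limma was 0.872 without the block (unadjusted p = 0.0219) and 0.0946 with it (unadjusted p = 0.00101), and 1.17% of all genes were under 0.1 in the blocked fit. The exact two-sided permutation test, again without the pairing by experiment, gave p = 0.2. Without both libraries of experiment 37 the blocked log2 fold change of Chrnb4 was -2.59 (limma adjusted p = 0.0333). Keeping only genes whose 6 values all reached 10 normalized counts, limma with the block gave -2.00 with an adjusted p of 0.045. With the block over all genes and no trend of the variance, the adjusted p of Chrnb4 in limma was 0.534. Its adjusted p in limma over all alternatives ran from 0.0333 to 0.9996. Leaving out 1 library gave log2 fold changes of Chrnb4 from -2.66 (without pseudo-islets of experiment 35 or pseudo-beta of experiment 37) to -1.31 (without pseudo-beta of experiment 35, the highest of all), and -1.41 without pseudo-islets of experiment 36. An absolute log2 fold change of at least 2, which both Hcar2 and Chrnb4 reached, was found for 0.754% of all genes, and for 0.309% of the 3235 genes with a mean of 50 to 200 normalized counts.

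**Figure D2:**
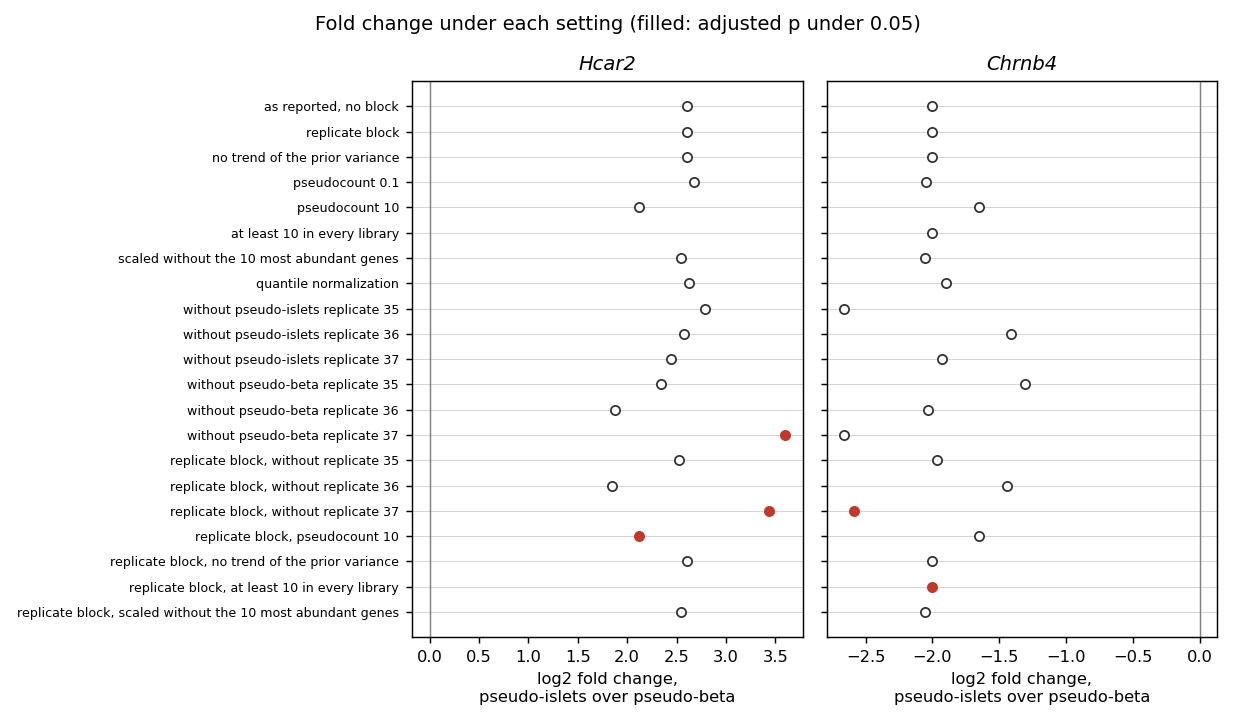
Log2 fold change (x axis, pseudo-islets over pseudo-beta) of Hcar2 and Chrnb4 under each processing setting (rows). Filled points have an adjusted p under 0.05 in limma. All points of Hcar2 lie above 0 and all of Chrnb4 below, with 3 filled points for Hcar2 and 2 for Chrnb4. Hcar2 has no point where genes had to reach 10 normalized counts in every library.

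Chrm3, the M3 muscarinic receptor through which acetylcholine amplifies insulin release, lies at chr13:9875486-10360847 on the minus strand (ENSMUSG00000046159). Its long locus overlaps 6 other annotated genes, the antisense gene Gm26861 among them. Pseudo-islets had 97.5, 96.2 and 91.3 normalized counts of Chrm3, and pseudo-beta had 60.1, 146 and 181. The pseudo-islets libraries lay close together, inside the range of the pseudo-beta libraries. Means were 95.02 ± 3.25 against 129 ± 62.2 (SD, n = 3). The direction differed between experiments, with log2 differences of 0.69, -0.60 and -0.98 in experiments 35, 36 and 37. Chrm3 gave a log2 fold change of -0.30 (SE 0.40, 95% interval -1.17 to 0.58, limma adjusted p = 0.998).

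Ffar1, known as GPR40, lets long-chain fatty acids amplify the response to glucose and was the most abundant of the 7 receptors. The gene (ENSMUSG00000044453) lies at chr7:30857390-30861564 on the minus strand and overlaps no other gene. Pseudo-islets had 1796, 1564 and 1397 normalized counts of Ffar1, and pseudo-beta had 2078, 1706 and 1419. It was lower in pseudo-islets in 3 of 3 experiments, as were 15% of all genes, and the groups overlapped. Means were 1586 ± 200.6 against 1734 ± 330.1 (SD, n = 3). The log2 fold change was -0.12 (SE 0.17, limma adjusted p = 0.998). Its 95% interval, -0.50 to 0.26, excluded a difference of 1.5-fold in either direction, and the blocked one was -0.34 to 0.10. Such an interval was found for 1 of the 7 receptors and for 27.3% of all genes without the block, and for 2 of the 7, Sstr3 and Ffar1, and 42% of all genes with it.

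Casr, which senses extracellular calcium, lies at chr16:36493696-36562141 on the minus strand (ENSMUSG00000051980), and the small RNA gene Gm25902 lies within it on the same strand. Pseudo-islets had 266, 135 and 159.8 normalized counts of Casr, and pseudo-beta had 167, 196 and 209. Pseudo-islets held both the highest and the lowest values. Means were 187 ± 69.2 against 190.5 ± 21.6 (SD, n = 3). The direction differed between experiments, with log2 differences of 0.67, -0.54 and -0.38. Casr gave a log2 fold change of -0.08 (SE 0.29, 95% interval -0.72 to 0.55, limma adjusted p = 0.998). The interval excluded a 2-fold difference for Sstr3, Adra2a, Ffar1 and Casr with the block, 4 of the 7, and for 68.6% of all genes. Without the block it did so for 4 of the 7 and for 62.4% of all genes.

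**Figure D3:**
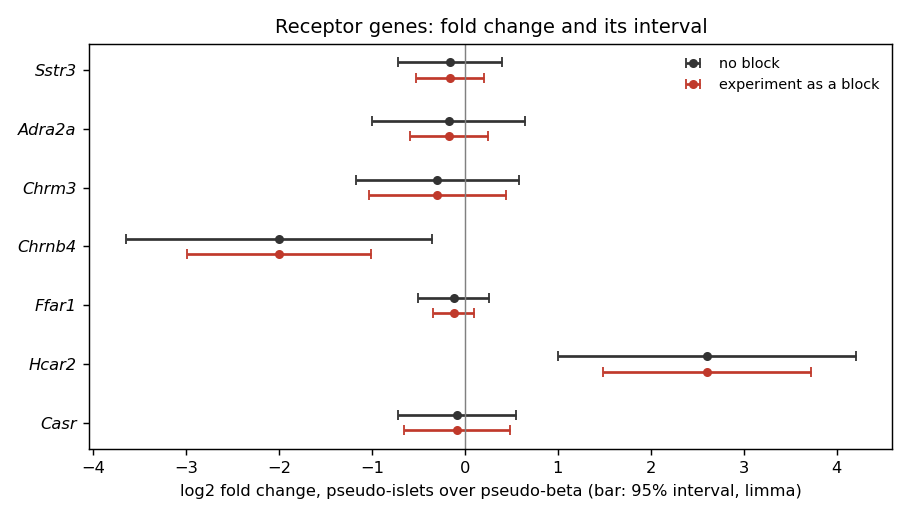
Log2 fold change of each receptor gene, pseudo-islets over pseudo-beta, with its 95% interval in limma, without a block (dark) and with the experiment as a block (red). Intervals of Hcar2 and Chrnb4 lie off 0 in both fits before adjustment over all genes, and those of the other 5 genes include 0.

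Levels of different genes were compared as normalized counts per kilobase of annotated exon, over all 6 libraries. Ffar1 had 398 ± 61.7 (SD), with a range of 335 to 498, and was first in every library. Its range did not meet that of Sstr3, the next in order, at 95.8 ± 22.7 with a range of 67.4 to 132. Adra2a followed at 56.9 ± 22.5, Hcar2 at 50.7 ± 38.05, Casr at 39.999 ± 9.73, Chrnb4 at 22.5 ± 25.7 and Chrm3 at 17.9 ± 6.97. From Sstr3 down, every gene's range overlapped that of the next. On this per-kilobase scale the place of Hcar2 depended on the group, with a mean of 80.1 in pseudo-islets and 21.3 in pseudo-beta. It was behind Ffar1 and at most Sstr3 in each pseudo-islets library, and last in pseudo-beta of experiments 35 and 36. Chrnb4 had a per-kilobase mean of 8.61 in pseudo-islets and 36.4 in pseudo-beta.

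**Figure D4:**
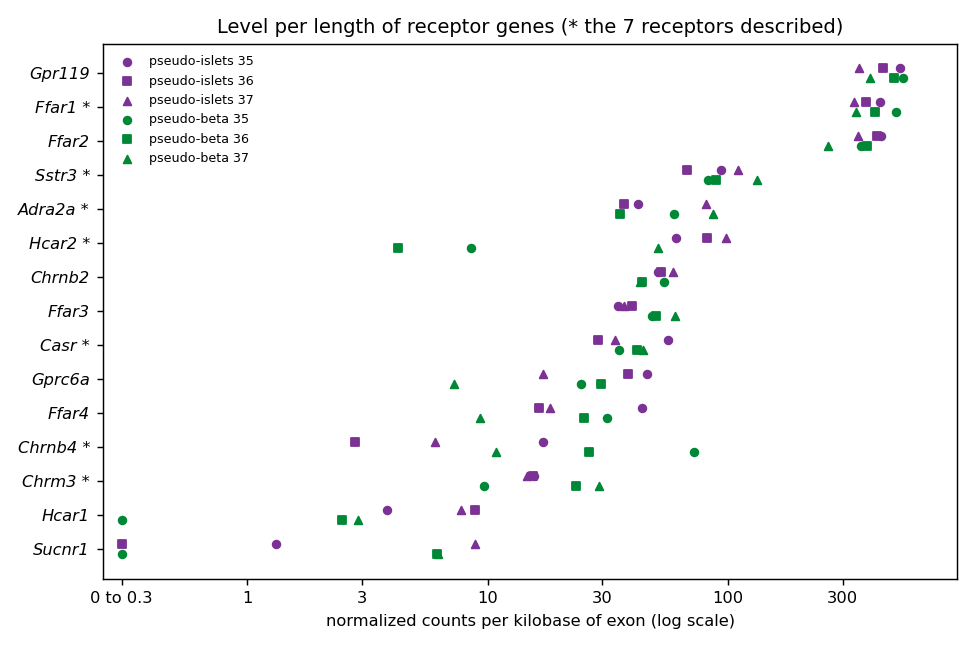
Level per length (x axis, normalized counts per kilobase of exon, log scale, values up to 0.3 drawn at the left edge) of the 7 receptor genes (asterisks) and of other receptor genes named in the text, 1 point per library. Ffar1 stands with Gpr119 and Ffar2 at the top, and the points of Hcar2 and Chrnb4 spread furthest among the 7.

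Other genes of the same receptor families were compared from family lists. Besides the 7 receptors, 9 of 43 listed genes were in the table, most of them metabolite receptors. None of the 9 was called by limma in either fit (lowest adjusted p = 0.901, blocked 0.291). At an unadjusted p under 0.05 there was 1 of 9 without the block, beside 5.4% of all genes, and 3 of 9, all higher in pseudo-islets, with it, beside 11.9%. Of the 9, 5 were higher in the mean and 4 lower, with a median log2 fold change of 0.21. Sstr3 was the 1 of 5 somatostatin receptors in the table, and Chrm3 the 1 of 5 muscarinic receptors.

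Hcar1, the lactate receptor next to Hcar2 in the genome, had normalized counts of 12.5, 29.1 and 25.5 in pseudo-islets and 0, 8.15 and 9.501 for pseudo-beta. These groups did not overlap either, as for 5.63% of all genes with pseudo-islets higher, at a level close to the lower limit of the table. The log2 fold change of Hcar1 was 2.27 (SE 0.95, limma adjusted p = 0.901, blocked 0.291). It was 1.17 without the pseudo-beta library of experiment 35, which is at 0, and ran from 1.05 with a pseudocount of 10 to 3.41 with one of 0.1.

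The short-chain fatty acid receptors Ffar2 and Ffar3 differed in sign, at log2 fold changes of 0.28 (SE 0.18) and -0.49 (SE 0.29). Ffar3 had 68.8 ± 4.74 normalized counts in pseudo-islets against 97.7 ± 12.1 in pseudo-beta (SD, n = 3). Its groups did not overlap, as for 10.8% of all genes in either direction. Ffar4, which like Ffar1 binds long-chain fatty acids, had a log2 fold change of 0.26 (SE 0.58). Gpr119, a receptor of lipid amides that raises cAMP, had one of -0.11 (SE 0.19) and was lower in 3 of 3 experiments (15% of all genes). Gprc6a, the amino-acid-sensing relative of Casr, had one of 0.82 (SE 0.56), but of 0.20 without the pseudo-beta library of experiment 37. It was higher in 3 of 3, as were 18% of all genes. Sucnr1, the succinate receptor, was near the lower limit of the table, with a log2 fold change of -0.45 (SE 1.34). Chrnb2, the other nicotinic subunit measured, had 455 ± 33.8 against 393 ± 51.7 and a log2 fold change of 0.21 (SE 0.18), so the sign was opposite to that of Chrnb4 in the mean. Whether these receptors differ from the 7 in their response was not tested.

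Genes that carry the receptors' signals or make their ligands were followed from lists, 39 of 53 being in the table. Without the block limma called 0 of the 39, where 0.0591% of all genes were called, and with it 1, where 0.539% were. At an unadjusted p under 0.05 there were 2 higher and 3 lower without the block (5.4% of all genes), and 4 higher and 5 lower with it (11.9% of all genes). That gene was Itpr2, the IP3 receptor that releases calcium downstream of Gq, with normalized counts of 709, 923 and 540 for pseudo-islets and 330.4, 554 and 358 for pseudo-beta. It was higher in 3 of 3 experiments, as were 18% of all genes, although the groups overlapped. Its log2 fold change was 0.81 (SE 0.26, limma adjusted p = 0.781, blocked 0.0431). The blocked call was lost when any 1 of the 3 experiments was left out, at adjusted p of 0.0713 to 0.217 in limma. It was also lost with the block and scaling without the 10 most abundant genes (limma adjusted p = 0.0583) and with the block and no trend of the variance (0.502). Of the 39, 19 were higher and 20 lower, with a median log2 fold change of -0.02.

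Among Gi/o genes, 9 of 12 in the table, Gnai3, an inhibitory alpha subunit, had the highest log2 fold change at 0.40 (SE 0.19, blocked limma adjusted p = 0.0772). Kcnj6, a potassium channel opened by these G proteins, had the lowest at -1.14 (SE 0.48). It had 25.1 ± 9.13 against 56.8 ± 24.6 normalized counts without overlap, as had 10.8% of all genes in either direction. Of 15 of 16 Gq genes in the table, Itpr2 was the highest and Prkcd, a protein kinase C, the lowest at -0.74 (SE 0.27). Itpr1, another IP3 receptor named after its values were seen, was the other gene lower at an unadjusted p under 0.05, at -0.47 (SE 0.18).

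The kinases and arrestins that desensitise receptors, 6 of 7 in the table, ran from Grk3 at -0.34 (SE 0.17) to Grk5 at 0.16 (SE 0.26). Of the helpers of nicotinic channel assembly, 2 of 4 were in the table, with log2 fold changes of 0.16 (SE 1.28) for Tmem35a and 0.13 (SE 0.26) for Ric3. Tmem35a was near the lower limit of the table, at 13.5 ± 10.4 against 24.8 ± 23.6 normalized counts (SD, n = 3). Despite the positive log2 value it was lower in pseudo-islets in 2 of 3 experiments, and pseudo-beta of experiment 35 was at 0. Genes of ligand synthesis and clearance, 7 of 14 in the table, ran from Th, which makes the precursor of catecholamines, at -0.09 (SE 0.24) to Slc18a1, a vesicular monoamine transporter, at 0.40 (SE 0.16). Slc18a1 had 855 ± 105 against 643 ± 39.7 normalized counts (SD, n = 3), without a call in either fit. Its groups did not overlap, as for 5.63% of all genes with pseudo-islets higher.

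**Figure D5:**
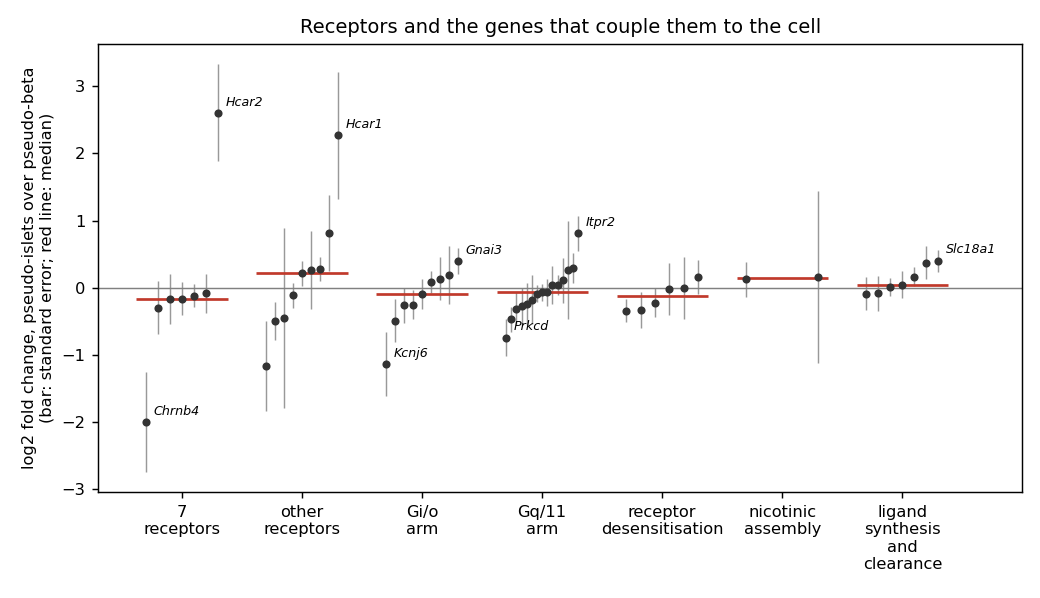
Log2 fold change (y axis, pseudo-islets over pseudo-beta) of each measured gene in the 7 lists, with its standard error as a bar and the list's median as a red line. Hcar2, Hcar1 and Chrnb4 lie furthest from 0, and the medians of all lists lie between -0.16 and 0.21.

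Genes with the pattern most like each receptor were sought among 10577 genes that averaged 50 normalized counts or more, by Pearson r of log2 values over the 6 libraries, which share their groups and experiments. For Hcar2 these were Pdcd4 (r = 0.989) and Arid1b (r = 0.984), and 32 genes had an r over 0.95. Both had their lowest value in pseudo-beta of experiment 36, as Hcar2 did. For Chrnb4 they were Sh3d21 (r = 0.990) and Ndn (r = 0.983), with 12 genes over 0.95, and all 3 genes were highest in pseudo-beta of experiment 35.

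Sstr3 was nearest to Togaram1 (r = 0.995) and Ube4b (r = 0.993), and Adra2a to Clk2 (r = 0.996) and Slc35a3 (r = 0.995), with 59 and 100 genes over 0.95. Chrm3 was nearest to Thoc2l (r = 0.991) and Kctd15 (r = 0.982), Ffar1 to Hspa1a (r = 0.991) and Slc35b4 (r = 0.989), and Casr to Mllt10 (r = 0.976) and 2900026A02Rik (r = 0.973). With 6 libraries and this many genes, values of this size are a description of the libraries.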

How the data were processed

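Per the labels and the study's methods, 5 ng of total RNA per library went into the Ovation Solo kit with ribosomal depletion, and pairs of 75-base reads were sequenced. The authors aligned them to GRCm38 with STAR 2.7.6a, estimated gene counts with RSEM 1.3.1 and normalized them with DESeq2 1.26.0 in R 3.6.3. The deposited signal is these normalized counts. The annotation release and the strand setting of the counting are not given in the sources used here. The authors' own comparison columns of the deposited table, which hold a mean, a fold change and standard error (log2), a test statistic, and raw and adjusted p-value entries, were not used. All 13535 genes reach 10 normalized counts in at least 3 libraries, and whether the authors filtered on this is not stated. Low values lay on a step of 0.905 to 1.19 in only 25.2% to 42.9% of cases, so whole reads were not recovered and no count model was run.

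Groups were compared with limma 3.58.1 (R 4.3.3) on log2(value + 1), with a trended prior variance and Benjamini-Hochberg adjustment over all 13535 genes, and an adjusted p under 0.05 counted as a call. Fold changes on this scale understate those of low genes. Intervals are 95% intervals from limma, and the median standard error of a log2 fold change was 0.27. Libraries of 1 experiment deviated together from their group means, with correlations of 0.119, 0.121 and 0.325, against -0.203 to 0.0922 between experiments. All were over the minimum of 0.1, but 0.119 and 0.121 only just. Deviations cancel out within a group, so these correlations are not independent and cannot establish the pairing. The samples are paired by the experiment numbers of the labels, and the blocked fit is given where it matters. Whether the experiments used separate animals is stated only as independent experiments, so p-values without the block rest on the spread between these samples. With the block they rest on the spread left after differences between experiments are taken out. In both fits limma moderates this spread with that of all genes. The script was tested on simulated data.

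The receptors, lists and rules were chosen with earlier results of these data known. The named genes are the 7 receptors, the measured family genes (1 is not reported here), genes of the signalling and ligand lists called in either fit or highest or lowest in their list, Gcg, Sst and Ppy, and the 2 genes most like each receptor. Older symbols of a listed gene were counted once. Annotation came from GENCODE M21 (13526 genes matched) and promoter sequences from RefSeq on GRCm38.p6. Protein sequences were not used here.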

Additional observations from a re-analysis of the deposited data

How the results depend on the processing

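There were 20 alternatives, 16 planned and 4 chosen after seeing the data, which combine the replicate block with another choice. Of the 7 receptors, 0 were called with or without the replicate block. Leaving out 1 library called 0 to 1 (Hcar2 without the pseudo-beta library of experiment 37), and leaving out 1 experiment with the block 0 to 2 (Hcar2 and Chrnb4 without experiment 37). The block with a pseudocount of 10 called 1 (Hcar2), and the block over genes whose values all reached 10 called 1 (Chrnb4), Hcar2 not being tested there because 1 library is at 8.15. The block without the variance trend, or scaled without the 10 most abundant genes, called 0 of the 7. Calls over the whole table numbered 8 (0 to 13 under the other unblocked settings) and, blocked, 73 (0 to 118). Of the 39 signalling and ligand genes, the replicate block called 1 (Itpr2), the block with a pseudocount of 10 also 1, and the block over genes whose values all reached 10 called 2 (Itpr2 and Gnai3). The block scaled without the 10 most abundant genes, without the variance trend or without 1 experiment called 0 of them.

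Hcar2 and Chrnb4 kept their direction in every alternative that tested them. Without 1 library, the log2 fold change of Sstr3 ran from -0.32 to 0.049, of Adra2a from -0.52 to 0.13, of Chrm3 from -0.77 to 0.017, of Ffar1 from -0.26 to 0.019 and of Casr from -0.37 to 0.12. In the same fits Ffar4 ran from -0.24 to 0.59, Gpr119 from -0.25 to 0.038, Sucnr1 from -1.61 to 0.48, Grk5 from -0.049 to 0.36, Tmem35a from -1.57 to 1.22, Ric3 from -0.10 to 0.29 and Th from -0.29 to 0.13. With the replicate block and without 1 experiment, Chrm3 ran from -0.79 to 0.045, Casr from -0.46 to 0.14 (0.067 without experiment 37), Ffar4 from -0.061 to 0.70, Sucnr1 from -1.51 to 1.06, Tmem35a from -1.23 to 1.43 and Ric3 from -0.20 to 0.33. Tmem35a was also at -0.32 with a pseudocount of 10, with and without the block. The cause of these changes was not tested. Of 29 named genes, 17 kept their sign in every alternative.

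Depth is known only as normalized sums, so no counting interval could be given. With 3 libraries a group, the median standard error of 0.27 limits what could be seen for the receptors whose intervals include 0.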

Other observations

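The genes around the receptors furthest from 0 were compared after their values had been seen. Within 100 kb of Hcar2 there were 5 other measured genes. Hcar1, 11237 bases away on the same strand, had a log2 fold change of 2.27 (SE 0.95), and Kntc1, a mitotic checkpoint gene, one of 0.83 (SE 0.40). Denr, a translation factor, was at 0.07 (SE 0.12), and Gm43518 and Ccdc62 were at -0.79 (SE 0.65) and -0.81 (SE 0.36). Within 100 kb of Chrnb4 there were 2, the proteasome subunit Psma4 at 0.12 (SE 0.14) and the lysine-catabolism kinase Hykk at -0.29 (SE 0.37). None of these 7 neighbours was called by limma at an adjusted p under 0.05, with or without the block. Of all genes, 0.539% were called with the block and 0.0591% without it.

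Between receptors, the log2 levels of Hcar2 and Chrnb4 had a Pearson r of -0.80 over the 6 libraries, those of Ffar1 and Chrnb4 one of 0.79, and those of Ffar1 and Hcar2 one of -0.63. The libraries share 3 experiments and 2 groups, so these are descriptions.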
